A study of Mus musculus with 4 samples.

Results

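The cytosolic ribosomal protein genes are the nuclear genes for the proteins of the large (Rpl, Rplp) and small (Rps) ribosomal subunits. They were taken as the rows of the deposited gene table whose symbol is Rpl, Rps or Rplp followed by a number, with an optional a, x or l and digit, and whose expression value was given in all 4 libraries. Of the 22667 genes listed, 84 had such a symbol and 80 qualified, 50 for the large and 30 for the small subunit. The other 4, Rps18, Rps3a2, Rps3a3 and Rps12l1, had reads but no expression value. A comparison between libraries was made for the 78 members with 75 or more reads in total, which left out Rpl10l and Rps27.

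The study asked how the RNA-binding protein and glucocorticoid receptor coactivator ARGLU1 shapes transcription and splicing in Neuro-2a (N2a) cells, a mouse neuroblastoma line. Cells were transfected for 48 h with a control siRNA (siControl) or an siRNA against Arglu1 (siArglu1) and then given vehicle (Veh) or 100 nM of the synthetic glucocorticoid dexamethasone (Dex) for 4 h. Each of the 4 conditions is 1 mRNA library made from 3 pooled cultures. Pooling leaves 1 library per group, so no difference below has a replicate check, and every interval given covers counting error only.

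Each ribosome holds a small subunit, which reads the mRNA, and a large subunit, which joins amino acids. Every ribosomal protein is needed in about equal numbers, their genes are among the most strongly expressed in dividing cells, and most of their mRNAs begin with a C and a run of pyrimidines (a 5' terminal oligopyrimidine, or TOP, start) through which the mTOR pathway and LARP1 set their translation. A few members have a close paralog, made in particular tissues or under stress, that can take their place. Many have processed pseudogenes, so a short read often cannot be assigned to the parent gene alone.

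Rps27 and Rps27l are shown first because Rps27l departs most from the other members, and the letters show how far its reads can be told from those of its parent. Rps27 is a zinc-finger protein of the small subunit, and its paralog Rps27l is a known p53 target. Both coding sequences (255 bases, GENCODE M21, GRCm38) are written 5' to 3' with the bases that differ between them in capitals. Rps27 lies at chr3:90212725-90213615 on the minus strand and Rps27l at chr9:66946175-66949357 on the plus strand. They differ at 61 bases (76.1% identity), and the longest run they share is 11 bases.
Rps27: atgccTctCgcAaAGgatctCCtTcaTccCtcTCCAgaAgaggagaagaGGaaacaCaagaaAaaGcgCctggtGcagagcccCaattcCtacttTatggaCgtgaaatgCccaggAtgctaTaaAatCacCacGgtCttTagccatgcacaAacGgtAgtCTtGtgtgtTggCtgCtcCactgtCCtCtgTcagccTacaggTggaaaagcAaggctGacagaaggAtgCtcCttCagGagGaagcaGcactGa
Rps27l: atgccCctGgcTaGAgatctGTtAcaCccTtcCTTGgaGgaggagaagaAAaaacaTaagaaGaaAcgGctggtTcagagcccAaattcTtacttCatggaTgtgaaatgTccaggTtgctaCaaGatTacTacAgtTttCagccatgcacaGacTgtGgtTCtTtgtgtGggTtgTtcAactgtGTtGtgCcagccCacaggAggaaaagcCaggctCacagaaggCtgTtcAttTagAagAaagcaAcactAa

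The start sites of the 4 members described most closely below are shown from 15 bases before to the first 15 transcribed bases, with the longest pyrimidine run within 10 bases of the start in capitals (RefSeq, GRCm38.p6). That of Rps27l is at chr9:66946071-66946100 on the plus strand (a second start site in the same table, at chr9:66946398-66946427, has a longest run of 4 and is not shown), that of Rpl5 at chr5:107900513-107900542 on the plus strand, that of Rps26 at chr10:128626492-128626521 on the minus strand and that of Rpl27a at chr7:109519180-109519209 on the plus strand. In Rpl27a the run of 20 bases goes past the edge of the window.
Rps27l: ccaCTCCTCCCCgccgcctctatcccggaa
Rpl5: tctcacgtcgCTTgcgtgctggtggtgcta
Rps26: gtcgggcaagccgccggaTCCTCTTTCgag
Rpl27a: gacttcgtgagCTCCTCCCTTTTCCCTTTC
Of the 72 start sites in the RefSeq table that belong to members (60 genes matched by symbol), 12 (16.7%) began with a C followed by at least 4 pyrimidines (C or T) on the coding strand, against 2.51% of all 32851 start sites. A run of 8 or more pyrimidines lay within 10 bases of 29 of the members' start sites (40.3%) and of 13.7% of all start sites. The 2 patterns overlap, and a match describes the letters of these windows only.

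The siControl libraries held 66074574 (vehicle) and 71228049 (Dex) reads on genes, and the siArglu1 libraries 66590878 (vehicle) and 86541444 (Dex). Arglu1 itself had 10165, 11825, 2637 and 3254 reads in that order, a log2 ratio of -1.92 (interval -1.99 to -1.86) in vehicle and -2.15 (-2.21 to -2.09) in Dex, which is the direction the labels state. Of 16 markers of sympathetic neuroblastoma cells, 13 were at 1 cRPKM or more in every library, and the neurofilament genes Nefl and Nefm were under 1 in all of them. None of the 4 fibroblast, 2 haematopoietic and 2 epithelial markers reached 1 in all libraries, and their summed levels ranged from 0.41 to 1.01. The summed level of the neuroblastoma markers was 1633 and 1671 in the siControl libraries and 2083 and 2089 in the siArglu1 libraries, and its part in the results below was not tested.

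Expression is given as cRPKM, reads scaled to library size and to the number of positions to which a read maps at 1 place only, so that genes can be compared per length. Of the reads, members took 3.75% (exact binomial interval 3.75 to 3.76) in siControl Veh and 3.85% (3.84 to 3.85) with Dex. In siArglu1 they took 4.47% (4.47 to 4.48) in vehicle and 3.94% (3.93 to 3.94) with Dex. By share of reads siArglu1 Veh was thus the highest library, and 2 of the 4 comparisons below contain it. Per length the members' share of all cRPKM was 12.1, 12.4, 12.7 and 11.6%, so siArglu1 Veh was again the highest and siArglu1 Dex the lowest. Their median level was 472, 508, 556 and 478 cRPKM, against 10.3, 10.8, 10.9 and 11.02 cRPKM (lowest library first) for all 12497 genes compared. Of the 80 members 33 had a mean of at least 1000 cRPKM, 26 lay between 100 and 1000, 17 between 10 and 100, and 4 under 10. They held 4 of the 20 and 37 of the 100 highest mean levels among the compared genes.

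Rpl32, a large-subunit protein, had the highest level, at 4415 and 4709 cRPKM in siControl cells with vehicle and Dex and 5598 and 4971 in siArglu1 cells with vehicle and Dex. All later lists of 4 values follow this order. Rplp1, an acidic protein of the stalk that recruits elongation factors, followed at 3426, 3517, 4146 and 3591 cRPKM. Rpl8, at the heart of the large subunit, was at 2900, 2884, 3397 and 3075 cRPKM. For each of these siArglu1 Veh was the highest library. Rps26, which lines the channel where the mRNA leaves the small subunit, was at 3488, 3516, 2712 and 2306 cRPKM, so both siArglu1 libraries were below both siControl libraries. Rpl19 was at 2572, 2586, 2795 and 2487 cRPKM.

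The lowest levels belonged to 2 tissue-restricted paralogs and 3 other members. Rpl10l, a testis paralog of Rpl10, had 9, 20, 14 and 16 reads in the same order of libraries. Rpl3l, the heart and skeletal muscle paralog of Rpl3, had 16, 20, 24 and 33 reads, or 0.18, 0.21, 0.27 and 0.29 cRPKM. Both were thus under 1 cRPKM in N2a cells in every condition. The row named Rpl24 was at 6.45, 6.49, 5.34 and 5.73 cRPKM, Rpl21 at 6.76, 6.68, 7.54 and 6.42, and the stalk protein Rplp2 at 26.5, 29.1, 30.2 and 25.6. The longest transcript of the Rpl24 row has 4920 bases, against a member median of 1100. Whether that row measures the mRNA of the ribosomal protein was not tested, and the member counts below include it.

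**Figure D1:**
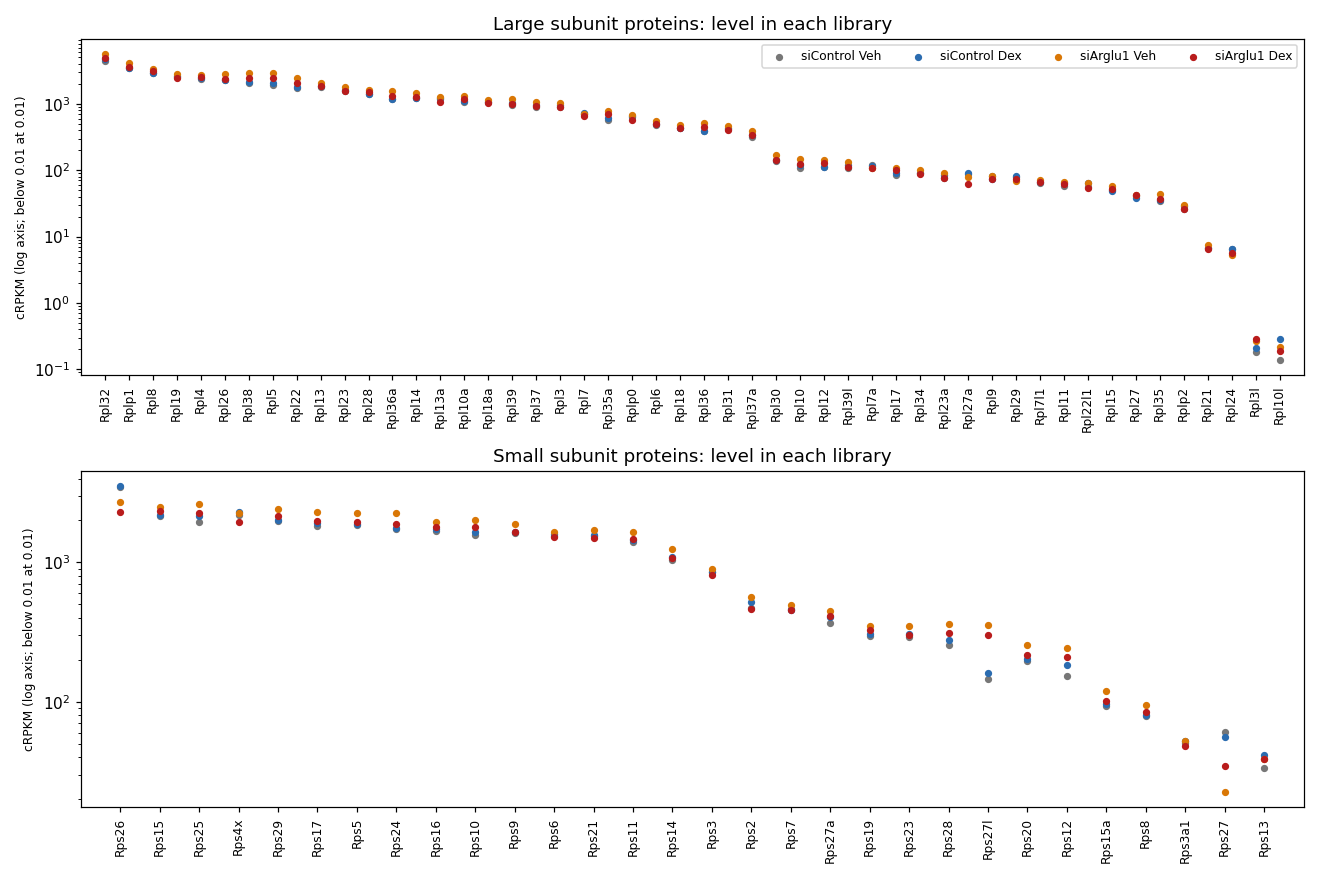
Level of each of the 80 members in each library (cRPKM, log axis), large subunit above and small subunit below, in the order of the mean over the 4 libraries. The libraries of most genes lie close together on the log axis, those of Rps27l and Rps27 less so, while genes range from under 1 cRPKM (Rpl10l, Rpl3l) to above 4000 (Rpl32).

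Most of these levels rest on few positions. The length to which reads could be assigned was 402 positions at the median of the members and 2707 over all compared genes, while the longest transcripts had medians of 1100 and 3397 bases. It was at most 100 positions in 17 members and at most 250 in 28, and it was under 25% of the longest transcript in 36. Rps26 was measured over 34 positions, Rpl36 and Rps12 over 20 each, and Rps27 over 2, on which it had 8, 8, 3 and 6 reads. The row named Rpl24 was the other extreme, at 4949 positions on a longest transcript of 4920 bases. In all, 11 members had over 1000 positions, among them Rps15a (4778), Rps20 (3599), Rpl18 (2655) and Rpl21 (1307). Rps15a thus had 29285 reads but 92.8 cRPKM in siControl Veh. Between 14.4 and 100% of the 50-base windows of a member's longest protein-coding transcript were found in no other gene (median 60.7%). The share was under 50% in 27 members, and 48 pseudogene rows named after members held 937 to 1322 reads per library. A cRPKM of such a member is therefore less certain than its read count, and reads shared with pseudogenes could have been split or dropped.

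In vehicle, 73 of 78 members were higher in siArglu1 than in siControl and 5 were lower. Their median log2 ratio was 0.27 (1.20-fold), against 0.0038 over all compared genes. The middle of the members ran from 0.18 to 0.38 (quartiles), and large-subunit members (median 0.25) and small-subunit members (0.29) lay close together. At the size of 0.81 that the study used, 1 member was higher (7.0% of all genes) and none was lower (8.77% of all genes). At 0.3 or more, 32 of 78 were higher (28.1% of all genes) and 1, Rps26, was lower (29.1% of all genes). Members thus lay mostly above zero as scaled. With the trend on mappable length removed, described further on, the median was -0.018, with 34 higher and 44 lower, and 8 were higher at 0.3. In pooled bulk RNA, more RNA per cell and more cells that make it cannot be told apart.

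In Dex the same knockdown left the members centred on zero, with 42 higher, 36 lower and a median of 0.011 (all genes 0.0031). The large-subunit median was -0.012 and the small-subunit median 0.019. Rps27l was again the only member higher at 0.81 (6.19% of all genes), and no member was lower at that size (5.93%). At 0.3, Rps27l and Rpl3l were higher (25.2% of all genes) and Rps26 and Rpl27a were lower (24.6%). The ratio was greater in vehicle than in Dex in 75 of 78 members, by 0.28 at the median, against 6044 of 12497 genes and a median difference of -0.0089 over all compared genes. Knockdown and Dex ratios come from the same 4 libraries, so this difference equals the one between the Dex ratios given next.

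In siControl cells Dex gave small differences: 71 were higher, 7 lower, and the median was 0.055 (all genes -0.0034). No member reached a log2 ratio of 1 (0.464% of all genes in either direction), 1 was higher at 0.3 (Rps13, 3.49% of all genes) and none was lower at 0.3 (3.76%). In siArglu1 cells 75 of 78 members were lower with Dex and 3 higher, at a median of -0.21 (all genes -0.0008). With the length trend removed that median was -0.057, with 60 lower. None reached 1 (0.392% of all genes), none was higher at 0.3 (8.17%), and 5 were lower at 0.3 (Rpl27a, Rps2, Rpl38, Rpl36a and Rpl39l, 3.54%). As scaled, the comparisons that hold siArglu1 Veh gave medians of 0.27 and -0.21, and the 2 that do not gave 0.011 and 0.055. With the length trend removed this split was not seen. The medians were then -0.018 and -0.057 with siArglu1 Veh, and -0.085 and 0.027 without it. In all, 68 members (87.2%) were higher with Dex in siControl and lower in siArglu1, as were 26.5% of all compared genes. This opposite direction between single libraries was not tested.

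**Figure D2:**
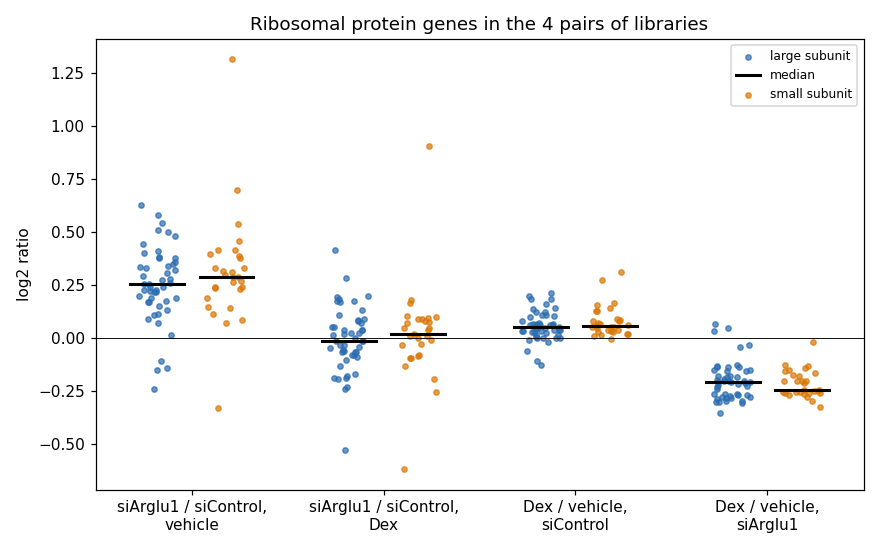
Log2 ratio (vertical axis) of the 49 large-subunit and 29 small-subunit members in the 4 pairs of libraries, 1 point a gene, with the median as a bar. As scaled, with the length trend still in the ratios, most members sit above 0 for knockdown in vehicle and below 0 for Dex in siArglu1. These pairs share the siArglu1 Veh library, and members sit near 0 in the other 2.

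Rps27l departed most from the other members. In siControl cells it had 4333 reads with vehicle and 5132 with Dex, and in siArglu1 cells 10606 and 11738, or 146, 160, 354 and 301 cRPKM. Both siArglu1 libraries were above both siControl libraries, at log2 ratios of 1.31 (1.26 to 1.36) for vehicle and 0.90 (0.86 to 0.95) in Dex. Its 450 mappable positions and 86.3% unique windows place it above the member medians of 402 and 60.7%. The parent gene Rps27 had too few reads for a ratio, so a shift from Rps27 to Rps27l could not be examined here.

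Rpl5 carries the 5S rRNA with Rpl11 into the large subunit, and both proteins can also bind Mdm2. Rpl5 had 139732, 157427, 212446 and 234464 reads and 1937, 2024, 2922 and 2481 cRPKM, with ratios of 0.63 (0.62 to 0.64) in vehicle and 0.29 (0.28 to 0.30) in Dex. Its partner Rpl11 had 953, 1161, 1120 and 1357 reads, a ratio of 0.26 (0.13 to 0.38) in vehicle and -0.06 (-0.18 to 0.05) in Dex. The partners therefore did not share the size of the difference. Rpl35a (2932, 3452, 4032 and 4828 reads) stood at 0.48 and 0.20, and Rpl36 (519, 556, 679 and 780 reads) at 0.41 and 0.20. Rpl3l, with ratios of 0.58 and 0.42, rests on at most 33 reads a library, and its intervals (-0.37 to 1.62 and -0.41 to 1.31) include zero. Rps12, named after its values were seen, had the second largest ratio in vehicle, 0.70, but 0.18 in Dex, on 203, 263, 325 and 364 reads.

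Against the general direction, 5 members were lower in both knockdown pairs. Rps26 had 7835, 8514, 6140 and 6785 reads, and its ratios were -0.33 (-0.38 to -0.28) in vehicle and -0.62 (-0.66 to -0.57) in Dex. Rpl27a had 3779, 4140, 3382 and 3517 reads and ratios of -0.14 (-0.21 to -0.07) and -0.52 (-0.59 to -0.46). Relative to the members' own median, Rps26 was at -0.60 in vehicle and -0.63 in Dex, and Rpl27a at -0.40 and -0.53. Both were thus low in either medium. The row named Rpl24, whose identity was not tested, had 2110, 2287, 1760 and 2454 reads. Its ratios were -0.24 (-0.33 to -0.15) and -0.19 (-0.27 to -0.10). Rpl29 (ratios -0.15 and -0.17) and Rpl7a (-0.11 and -0.08) had at most 533 reads in a library, and their intervals include zero.

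**Figure D3:**
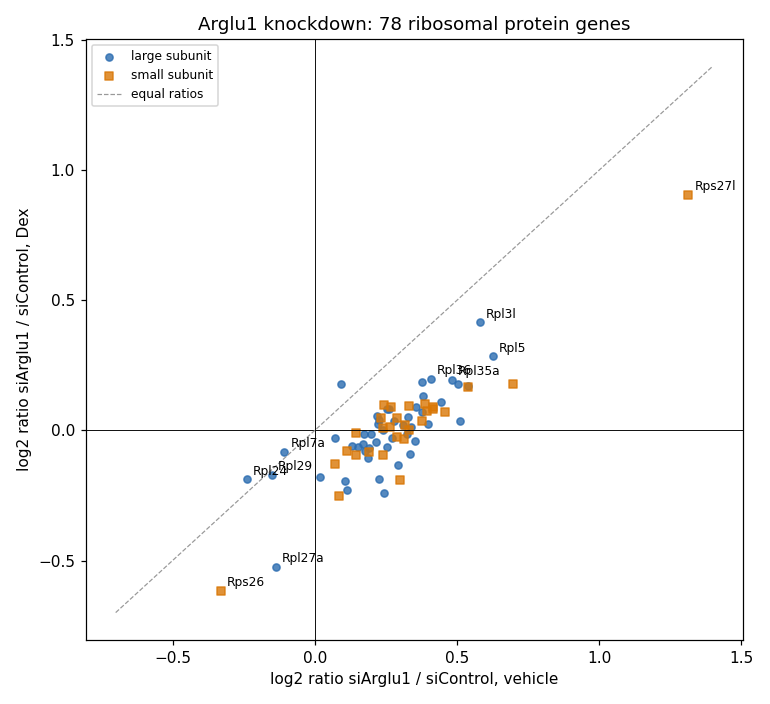
Log2 ratio of siArglu1 to siControl in vehicle (horizontal) and in Dex (vertical) for 78 members, with the dashed line at equal ratios and the members with the largest same-direction ratios named. 75 of 78 points lie below the line, Rps27l is alone at the upper right and Rps26 at the lower left.

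The paralogs can be set beside their parents. Rpl22l1 had 1634, 1991, 1904 and 2059 reads, and ratios of 0.24 in vehicle and -0.24 (-0.33 to -0.15) in Dex. Its parent Rpl22, whose protein is known to repress Rpl22l1, had 49103, 54065, 68483 and 74710 reads, and ratios of 0.50 and 0.18. Rpl39l and its parent Rpl39 gave 0.33 and 0.35 in vehicle and -0.09 and -0.04 in Dex, so this pair stayed close together. Rpl7l1 (0.17 and -0.01) lay above Rpl7 (0.02 and -0.18) in both media. Rpl3 was at 0.19 and -0.10, Rpl10 at 0.51 and 0.04, Rpl36a at 0.44 and 0.11, and Rps4x at 0.08 and -0.25. Rpl36al, the Rpl36a paralog whose name the rule does not take, had 20342, 22974, 30396 and 33274 reads and ratios of 0.60 and 0.25, somewhat above its parent in either medium.

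The stalk proteins did not share one direction in Dex. Rplp0, the stalk base, had 12769, 14298, 13604 and 14887 reads and ratios of 0.11 in vehicle and -0.23 (-0.26 to -0.20) in Dex. Rplp1 was at 0.31 and 0.02, Rplp2 at 0.22 and -0.19, and Rpl12, which sits beside the stalk, at 0.38 and 0.18. The 9 proteins around the exit of the nascent chain had medians of 0.33 in vehicle and 0.023 in Dex, with 9 and 5 members higher. Of the 17 compared members known as Diamond-Blackfan anaemia genes, 16 were higher in vehicle (median 0.33) and 12 in Dex (median 0.055), with Rps26 lower in both. Over all 78 members 73 were higher in vehicle (median 0.27) and 42 in Dex (median 0.011).

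In the Dex pairs the members with the same direction in both were few, 3 higher and 7 lower. Rpl3l (0.21 and 0.05), Rpl29 (0.06 and 0.04) and the row named Rpl24 (0.02 and 0.07) were higher in siControl and siArglu1. Of the 7 lower in both, Rpl9 (-0.11 and -0.21), Rpl27 (-0.13 and -0.04) and Rpl7a (-0.06 and -0.03) had the largest shared differences. The intervals of all members with a shared direction include zero in at least 1 pair. No single member thus differed with Dex beyond counting error in the same direction in both backgrounds. The additive edgeR model of knockdown and Dex, which takes what the pairs do not share as error and has 1 residual degree of freedom, called 25 of 78 members for knockdown (22 higher, 3 lower) against 61.6% of all genes, and 0 members for Dex against 1.04% of all genes.

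The log2 ratios moved with mappable length in all genes. For knockdown in vehicle the median of non-members was 0.11 up to 100 positions, 0.13 up to 250, 0.41 up to 500, 0.36 up to 1000, 0.22 up to 2000, -0.01 up to 4000 and -0.31 beyond. Members had medians of 0.30, 0.26, 0.27, 0.26, 0.22, 0.20 and 0.08 in the same classes, which hold 16, 10, 21, 20, 6, 3 and 2 of them. Members thus lay below non-members of their length between 250 and 1000 positions and above them up to 250 and beyond 2000 positions. With the trend on length removed the members' median was -0.018 for knockdown in vehicle (34 higher, 44 lower), -0.085 in Dex (17 and 61), 0.027 for Dex in siControl (60 and 18) and -0.057 for Dex in siArglu1 (18 and 60). After the removal both knockdown medians thus lay slightly below zero. Rps27l kept 0.96 and 0.75 and Rps26 -0.47 and -0.60 after the removal, Rpl27a -0.49 and -0.69, and Rpl5 0.35 and 0.14, while Rpl24 went to 0.01 in vehicle.

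**Figure D4:**
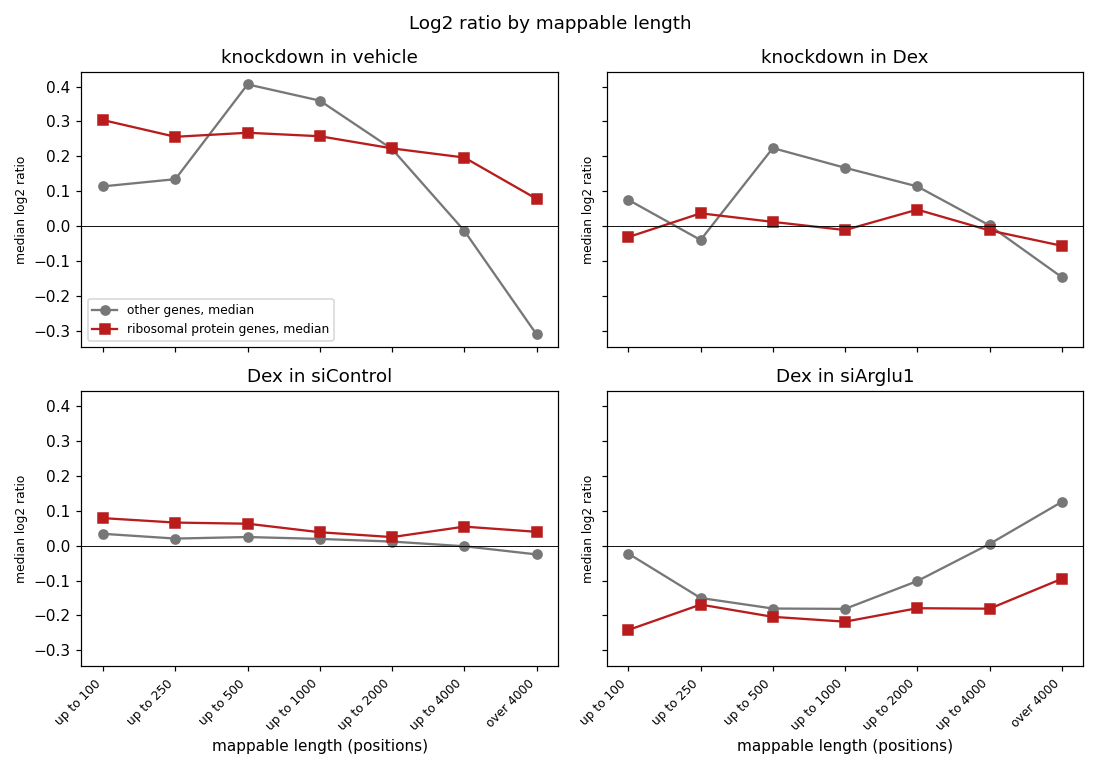
Median log2 ratio of members (squares) and of all other genes (circles) by class of mappable length (positions), 1 panel for each pair of libraries. In both knockdown panels the other genes are highest between 250 and 500 positions (0.41 and 0.22), lower at shorter lengths and below 0 beyond 4000, while members stay within 0.08 to 0.30 in vehicle and within -0.06 to 0.05 in Dex.

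As scaled, mitochondrial ribosomal protein, oxidative phosphorylation and proteasome genes had medians above zero in both media, while members were centred on zero in Dex. These families had median mappable lengths of 1053, 694 and 1354 positions in that order, against 2707 over all compared genes. Non-members of 500 to 1000 positions had medians of 0.36 in vehicle and 0.17 in Dex. Those of 1000 to 2000 positions had 0.22 and 0.11. The length trend was not removed for the families. The 76 mitochondrial ribosomal protein genes had medians of 0.39 for knockdown in vehicle and 0.20 in Dex, with 71 and 59 higher. Mrps17 was at 1.22 and 0.91, and Mrps18a at 0.99 and 0.81. The 72 compared subunits of oxidative phosphorylation had medians of 0.44 and 0.19, and the 36 compared proteasome subunits 0.32 and 0.15. In siArglu1, Dex gave medians of -0.19, -0.24 and -0.17 in these families, beside -0.21 in members. The 65 ribosome biogenesis factors, which assemble the subunits, were nearer zero at 0.043 and -0.052, although the snoRNP proteins Nop10 (1.13 and 0.77) and Nhp2 (0.91 and 0.60) were higher and the RNA polymerase I factors Rrn3 (-0.51 and -0.54) and Polr1b (-0.45 and -0.35) lower. The 16 TOP mRNAs of other translation proteins had medians of 0.20 and -0.043. Among the 13 regulators of TOP translation (medians -0.20 and -0.026) the translation repressor Eif4ebp2 was at -0.97 and -0.76, and the mTOR complex subunit Mlst8 at 0.53 and 0.61.

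**Figure D5:**
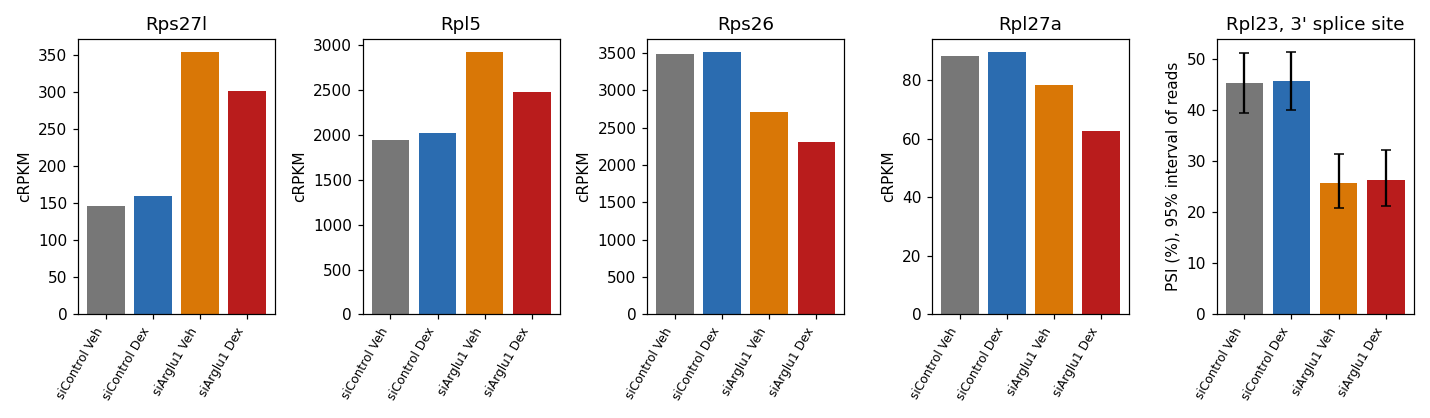
cRPKM (bars, from 0) of Rps27l, Rpl5, Rps26 and Rpl27a in the 4 libraries, and percent spliced in (PSI) of the 32-base Rpl23 splice site with its Wilson 95% interval of reads. Rps27l and Rpl5 are higher, and Rps26, Rpl27a and the Rpl23 site lower, in both siArglu1 libraries than in both siControl libraries.

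Splicing was given as PSI, the percent of informative reads that hold the exon or take the splice site. The tables listed 247 events in 72 members, and 147 events in 59 members had enough reads to compare (66 alternative 3' sites, 63 alternative 5' sites and 18 cassette exons). A change of 15 points or more was seen in 8 events for knockdown in vehicle (1.96% of all events), in 8 in Dex (1.52%), in 5 for Dex in siControl (0.719%) and in 2 for Dex in siArglu1 (0.948%). That is 5.44, 5.44, 3.40 and 1.36% of the members' events. Most of those past 15 points had under 100 reads a library, and when every library had to score OK or better, 2, 3, 1 and 0 events passed the size.

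In both knockdown pairs and the same direction, 2 events passed 15 points (0.54% of all events). The first is an alternative 3' site in Rpl23, which sits at the face where the subunits join, at chr11:97642718-97642776 (mm9, per the submitters' processing notes). The site that differs by 32 bases had a PSI of 45.4 (Wilson 95% interval 39.5 to 51.3), 45.7 (40.1 to 51.5), 25.8 (20.8 to 31.5) and 26.4% (21.2 to 32.3) on 269, 293, 252 and 239 reads. Both siArglu1 libraries were thus below both siControl libraries (-19.56 and -19.37), and Dex changed it by less than 1 point. The second is an 836-base cassette exon listed under the gene of the Rpl24 row (chr16:55990372-55991207, mm9). Its PSI was 97.0, 95.5, 75.6 and 73.0%, with a very low coverage score in siArglu1 Veh. The Rpl24 start site in the RefSeq table is at chr16:55966260-55966289 in GRCm38, a different build from that of the exon. Whether this exon lies in the ribosomal protein gene was not tested. Rpl6 just missed the size in vehicle, with a 19-base 3' site at 92.7, 95.8, 78.1 and 77.3% on 107, 110, 78 and 82 reads. A 34-base 3' site of Rpl7a went opposite ways in vehicle (-35.93) and Dex (16.51) on 21 to 34 reads. For 21 members no event could be compared.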

How the data were processed

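mRNA of N2a cells from 4 pooled libraries was analysed, 1 per group. The authors deposited read counts per gene, not normalized, and the RPKM corrected for mappable positions (cRPKM) beside them. A gene with a blank read cell was taken as 0 reads. The deposited splicing tables give PSI as a percent per library with a coverage score. Per the submitters' processing notes the build was mm9 and Bowtie was used. The paper names vast-tools for splicing and refers to an earlier workflow for expression, and the annotation and versions are not named. Of the deposited gene table, 2 unnamed columns with the authors' own ratios of cRPKM were not used.

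Members and gene lists were chosen with earlier results of these data known. Reads were scaled by TMM (edgeR 4.0.16, R 4.3.3), and log2 ratios of CPM with a prior count of 1 were taken for genes with at least 75 reads over the 4 libraries, giving 12497 genes. Intervals are exact 95% intervals from the reads of both libraries and cover counting error only (Wilson intervals for PSI). Single pairs of libraries have no replicates and were not tested, and sizes of 0.81 (knockdown, the study's size), 1 (Dex) and 0.3 were counted beside the share of all genes. Mappable length was recovered from reads, cRPKM and library totals, and its trend was removed by lowess (span 0.3, 3 iterations, statsmodels 0.14.6). Unique windows of 50 bases came from each member's longest protein-coding transcript, compared with all GENCODE M21 transcripts. Splice events were compared where each library had a PSI and no more than 1 scored below LOW, and changes of at least 15 points were counted. The steps were tested on simulated data.

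By rule the text names the 5 highest and 5 lowest members by mean cRPKM, the 5 largest differences in each direction shared by both knockdown pairs and 3 shared by both Dex pairs, members past the sizes, paralogs with their parents, stalk and 5S proteins, members with a shared splice change, and from each other list the 2 largest shared differences in each direction. From the other lists only some of these are printed. Rps12, Rps13, Rps2, Rpl38 and Rpl6 were named for counts or after their values were seen, and Rps15a, Rps20 and Rpl18 for their mappable length.

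Alternatives were DESeq2 1.42.0 size factors, total reads, TMM without members, other minimums and prior counts, cRPKM ratios, length and GC trends, other member sets, an additive edgeR quasi-likelihood model with Benjamini-Hochberg adjusted p of 0.05, and other splicing limits.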

Additional observations from a re-analysis of the deposited data

Results flagged for a closer look

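The members' Dex ratios pointed in opposite directions in the siControl and siArglu1 cells. Their median log2 ratio was 0.055 in siControl and -0.21 in siArglu1, and 68 of 78 members were higher with Dex in siControl and lower with Dex in siArglu1, as were 26.5% of all compared genes. As scaled, other families had medians of the same opposite signs. They were 0.029 and -0.19 in mitochondrial ribosomal protein genes, 0.031 and -0.24 in oxidative phosphorylation subunits and 0.030 and -0.17 in proteasome subunits. Each side rests on 1 pair of libraries, and the difference was not tested. By the same 4 libraries, 31 members were higher with knockdown in vehicle and lower with knockdown in Dex (6.77% of all compared genes), also not tested.

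Of the 4 matching genes without a cRPKM, 3 had more than 3 reads in every library, and Rps12l1 had 2, 0, 0 and 1. Rps18, a small-subunit protein gene, had 293 reads in siControl cells with vehicle and 349 with Dex, and 459 and 490 in siArglu1 cells. Rps3a3 had 711, 927, 1047 and 1163 reads in the same order. Rps3a2 had 19, 28, 20 and 31 reads.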

How the results depend on the processing

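Of 52 medians of members recomputed under an alternative, 46 kept their direction and moved by less than the typical counting interval. Of 316 ratios of single named members 293 moved by less than their own counting interval, of which 6 near zero turned sign. Depth limits Rpl3l, Rpl10l and Rps27, which have too few reads to compare well. With the length trend removed, the knockdown medians turned to -0.018 in vehicle and -0.085 in Dex, Rpl24 in vehicle turned to 0.0061, and the Dex median in siArglu1 moved to -0.057. With the GC trend removed the knockdown median in Dex turned to -0.015. cRPKM ratios with a pseudocount of 1 gave 0.23 for knockdown in vehicle and -0.17 for Dex in siArglu1. The cause of these moves was not tested.

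Members past 0.81 in vehicle and Dex (1 each) were 8 and 3 at a size of 0.5, 0 and 0 without paralog-type members, 2 in vehicle with no minimum on reads, and 0 in Dex with the length trend removed. The additive model, which gives 1 knockdown effect for both media and sets no size, called 25 members (61.6% of all genes). At 0.3, removing the length trend took the vehicle counts from 32 higher and 1 lower to 8 and 4. Knockdown counts in Dex went from 2 and 2 to 1 and 8. The Dex counts went to 0 higher in siControl and 2 lower in siArglu1. Those 2 were Rps15a (-0.35) and Rps20 (-0.32), which have unusually many mappable positions for members (4778 and 3599). Both were also among the 8 higher in vehicle, at 0.63 and 0.52. Without a minimum on reads the counts at 0.3 were 2 lower in vehicle, 4 lower in Dex, 2 higher for Dex in siControl and 1 higher for Dex in siArglu1. Higher in Dex were 1 with a minimum of 500 reads, 1 by cRPKM with a pseudocount of 1, 1 without members under 10 cRPKM and 0 without paralog-type members. Dex in siControl gave 0 higher by cRPKM with a pseudocount of 1. Lower for Dex in siArglu1 were 3 with 500 reads, and 1 each by total reads, and by cRPKM with pseudocounts of 1 and 0.1.

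The members' share was 12.1, 12.4, 12.7 and 11.6% by summed cRPKM and 3.79, 3.88, 4.52 and 3.98% of reads with 4 ribosomal protein genes outside the rule added. Splice events at 15 points (8, 8, 5 and 2 in the 4 pairs, 2 shared by the knockdown pairs) were 2, 3, 1 and 0, with 1 shared, at OK in all libraries, 38, 34, 33 and 32 with 9 shared at no minimum, 14, 12, 10 and 5 with 6 shared at 10 points, and 1, 1, 2 and 1 with 0 shared at 25 points. Leaving out a replicate could not be done with 1 library per group.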
